A study of Mus musculus with 15 samples.

Results

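Forebrain RNA of wild-type mice given what the labels call PLX 3x, from libraries named PLX3X_CD0, was compared with forebrain RNA of untreated wild-type mice (NT). The 6 libraries, 3 in each group, were chosen by their library names from the 15 libraries of the series. The labels do not spell out PLX or CD0, and name no dose, duration, age, sex or strain. Nothing states that each library is from its own animal, so the p-values measure how much these libraries vary, and that variation may be technical. The other groups were PLX1X (labelled PLX 1x), PLX3X_CD30 and IR_BMT, with 3 libraries each, all from wild-type brain. They entered the fit to estimate the spread of each gene, and PLX1X also served as a second reference.

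Microglia are the macrophages of the brain parenchyma, and they depend for survival on signals through the receptor CSF1R, whose ligands are CSF1 and IL34. They survey the tissue through purinergic and chemokine receptors, take up debris and complement-tagged synapses, and share many genes with macrophages of the brain borders and of blood. Astrocytes clear glutamate and supply lipid to neurons, and oligodendrocytes make myelin. In whole tissue, fewer cells of a type and less RNA per cell cannot be told apart.

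Genes restricted to myeloid cells were far lower in PLX3X_CD0 than in NT, and smaller shifts ran through astrocyte, oligodendrocyte, synaptic and lipid genes. Of 21780 genes tested, 2657 were higher (12.2%) and 2075 lower (9.53%), 21.7% in all (edgeR quasi-likelihood test, Benjamini-Hochberg adjusted p under 0.05). The rises were small: 44 reached 2-fold, and the median log2 fold change of the higher genes was 0.32. Among the falls 699 reached 2-fold and 129 reached 8-fold, with a median of -0.61 over all lower genes. The median over all genes tested was -0.03. The shares of 12.2% higher and 9.53% lower are the background for the main-fit counts of each gene list against NT below. Counts from other settings have other backgrounds. With an offset in the fit for transcript length, GC content and abundance, 1081 genes were higher and 2930 lower. A fit on the 6 libraries alone gave 1465 higher and 1136 lower. Among protein-coding genes 16.8% were higher and 9.21% lower in the main fit. Protein-coding genes made up 97.8% of the higher genes and 68.8% of the lower ones. In every alternative setting tried, 775 genes were called higher and 755 lower.

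NT replicate 1 was the shallowest library, with 19249641 counts, and PLX3X_CD0 replicate 3 the deepest, with 54801136. PLX3X_CD0 replicate 1 stood apart in choroid plexus genes: 15 of them summed to 3600 CPM there, against 346 and 378 CPM in replicates 2 and 3 and 337 to 387 CPM in NT. Ttr, the transport protein of choroid plexus epithelium, was at 21.97, 6.51 and 14.6 CPM in NT and 1481, 5.94 and 6.68 CPM in PLX3X_CD0. None of the 15 genes passed in the main edgeR fit, where 5 had an unadjusted p under 0.05, or in DESeq2, and edgeR with no filter on low counts called 14 of them higher. NT replicate 1 stood apart in thalamic genes, whose sum was 660 CPM there and 338 to 387 CPM in the other 5 libraries. NT replicate 2 was high in meningeal fibroblast genes, with 2024 CPM against 792 and 1015 CPM in the other NT libraries and 1196 to 1405 CPM in PLX3X_CD0. NT replicate 3 and PLX3X_CD0 replicate 2 were high in olfactory bulb and monoaminergic neuron genes. For replicates 1, 2 and 3 the olfactory bulb sums were 13.7, 17.5 and 180.7 CPM in NT and 13.1, 200.5 and 37.6 CPM in PLX3X_CD0. The monoaminergic sums were 21.7, 23.4 and 83.97 CPM in NT and 17.97, 80.3 and 23.98 CPM in PLX3X_CD0. The part of these libraries in the results was not tested beyond leaving each out.

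**Figure D1:**
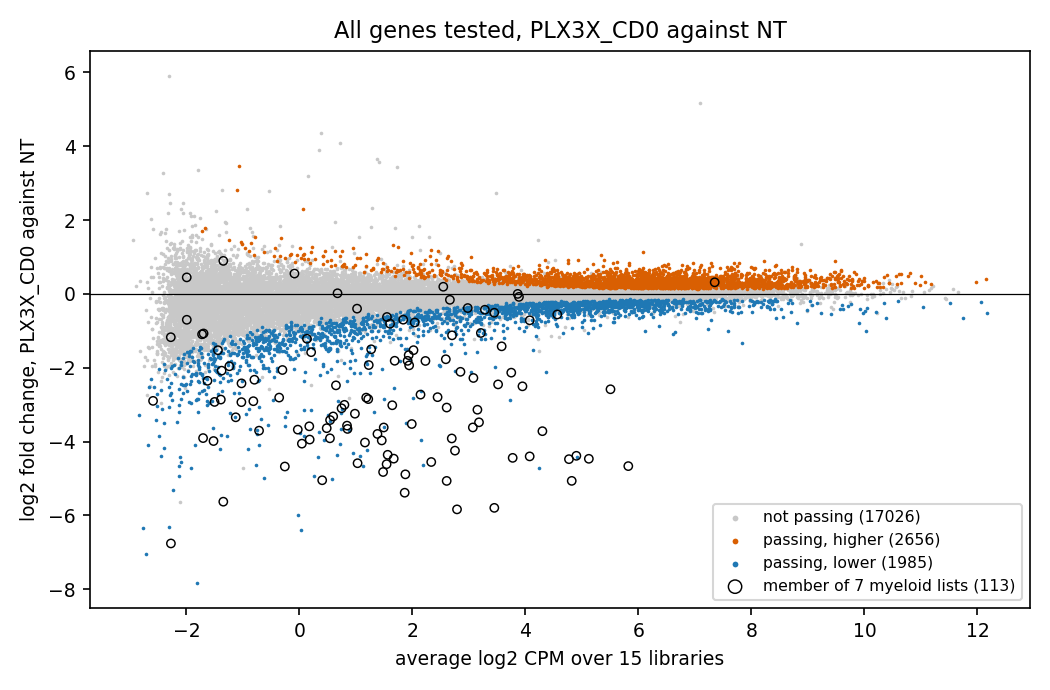
Each point is 1 of the 21780 genes tested, with its average log2 CPM over 15 libraries on the horizontal axis and its log2 fold change, PLX3X_CD0 against NT, on the vertical axis. Orange and blue mark genes past the threshold outside the 7 myeloid lists, grey the remainder, and open circles the 113 members of those lists. Most circles lie below 0, down to -6.76, while most orange points lie at high abundance with changes under 1.

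Levels are given as CPM, counts scaled to library size with TMM factors, for replicates 1, 2 and 3 in that order, and log2 fold changes carry their standard error. Csf1r, the survival receptor (ENSMUSG00000024621, chromosome 18, 61100598 to 61132149, mm10), stood at 146, 170.3 and 179.6 CPM in NT and at 5.37, 10.6 and 3.58 CPM in PLX3X_CD0. P2ry12, a purinergic receptor of homeostatic microglia (ENSMUSG00000036353, chromosome 3, 59216272 to 59262871), was at 40.9, 41.9 and 37.7 CPM in NT and 1.62, 2.58 and 1.34 CPM in PLX3X_CD0. In neither gene did the groups come near each other, and PLX3X_CD0 replicate 2 kept the highest level of the 3 treated libraries. The log2 fold changes were -4.66 ± 0.40 (adjusted p = 2.02e-05) and -4.44 ± 0.23 (adjusted p = 1.26e-08). Siglech, a microglial lectin (ENSMUSG00000051504, chromosome 7, 55768178 to 55778925), had the largest fall among genes past the threshold whose groups did not overlap and whose log2 CPM averaged 1 or more. It went from 15.4, 20.2 and 21.3 to 0.324, 0.485 and 0.187 CPM, a change of -5.84 ± 0.30 (adjusted p = 3.51e-09). Tmem119, a membrane protein used as a microglial marker (ENSMUSG00000054675, chromosome 5, 113793729 to 113800516), went from 44.1, 47.9 and 46.5 to 2.65, 5.32 and 2.56 CPM (-3.72 ± 0.25, adjusted p = 9.03e-07). Of 15 microglia-restricted genes, all tested, 12 fell and none rose (Sall1, Gpr84 and Ccr6 did not pass), with a median log2 fold change of -3.72, against a median of -0.03 over all genes.

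The receptors, kinases and transcription factors of the myeloid lineage fell with them. Of 24 listed genes of myeloid receptors and signalling 23 were tested and 22 fell, with a median of -2.33. Spi1 encodes PU.1, the lineage-determining factor of macrophages (ENSMUSG00000002111, chromosome 2, 91082390 to 91115756). Its level was 6.29, 8.17 and 6.40 CPM in NT and 0.203, 0.660 and 0.149 CPM in PLX3X_CD0, a change of -4.36 ± 0.44 (adjusted p = 5.51e-06). Irf8, a partner factor of PU.1, changed by -2.80 ± 0.20, and Inpp5d, a lipid phosphatase, by -1.42 ± 0.12. All 15 genes of the complement, Fc receptor and TREM2 list fell (median -4.24). C1qa, a chain of the complement initiator C1q (ENSMUSG00000036887, chromosome 4, 136895917 to 136898803), was at 34.98, 41.9 and 43.4 CPM in NT and 1.76, 3.38 and 0.578 CPM in PLX3X_CD0 (-4.40 ± 0.51, adjusted p = 0.000142). Trem2, a lipid-sensing receptor (ENSMUSG00000023992, chromosome 17, 48346401 to 48354147), went from 18.5, 19.7 and 19.6 to 1.46, 1.999 and 1.25 CPM (-3.62 ± 0.16, adjusted p = 1.11e-10).

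The promoters of called myeloid genes are shown because the core of the PU.1 binding site, GAGGAAG on either strand, was searched in them and Spi1 itself fell. The sequences are RefSeq promoters of GRCm38.p6, from 250 bases before to 50 bases after the annotated start, written 5′ to 3′ on the strand of the gene, with the match in capitals. The 4 are the called members with the smallest adjusted p that hold a match: Trem2 (chr17:48346151-48346450, plus strand), Fcgr3, an activating Fc receptor (chr1:171059354-171059653, minus strand), Pld4, a lysosomal nuclease of myeloid cells (chr12:112760405-112760704, plus strand), and Cd53, a leukocyte tetraspanin (chr3:106790100-106790399, minus strand).
Trem2 promoter: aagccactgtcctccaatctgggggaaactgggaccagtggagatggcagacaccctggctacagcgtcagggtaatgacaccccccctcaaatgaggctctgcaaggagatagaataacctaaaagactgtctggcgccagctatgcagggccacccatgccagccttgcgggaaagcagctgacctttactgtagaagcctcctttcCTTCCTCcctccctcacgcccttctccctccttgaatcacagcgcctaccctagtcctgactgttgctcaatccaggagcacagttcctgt
Fcgr3 promoter: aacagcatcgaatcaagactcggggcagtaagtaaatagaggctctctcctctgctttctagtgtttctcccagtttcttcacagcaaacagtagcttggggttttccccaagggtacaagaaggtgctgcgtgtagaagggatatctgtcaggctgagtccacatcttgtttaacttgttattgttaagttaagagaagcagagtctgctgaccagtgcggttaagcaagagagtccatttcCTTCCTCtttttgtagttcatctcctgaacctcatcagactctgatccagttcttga
Pld4 promoter: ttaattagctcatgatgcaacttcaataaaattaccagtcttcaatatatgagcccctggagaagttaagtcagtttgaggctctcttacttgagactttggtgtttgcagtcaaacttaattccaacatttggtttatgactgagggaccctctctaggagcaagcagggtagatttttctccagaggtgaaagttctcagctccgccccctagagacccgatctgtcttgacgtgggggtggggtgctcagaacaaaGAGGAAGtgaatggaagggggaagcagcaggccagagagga
Cd53 promoter: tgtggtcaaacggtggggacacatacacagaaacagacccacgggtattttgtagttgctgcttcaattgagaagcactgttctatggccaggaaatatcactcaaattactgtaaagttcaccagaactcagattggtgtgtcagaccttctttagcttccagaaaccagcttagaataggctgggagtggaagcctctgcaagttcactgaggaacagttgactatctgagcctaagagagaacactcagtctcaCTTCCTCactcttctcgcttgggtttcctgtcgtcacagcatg
Of the 72 genes in the 4 lists searched (microglia-restricted, myeloid receptor and signalling, complement, Fc receptor and TREM2, and pan-leukocyte genes) 52 had a promoter entry, and 22 of these (42.3%) held the motif. Among all 27025 promoters of that length 3658 (13.5%) held it. A match is a description of the letters and not evidence of binding.

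Most innate sensors and leukocyte genes also fell. Of 25 listed Toll-like receptor, chemokine and interleukin 1 genes 21 were tested and 14 fell (median -1.96). Of 18 pan-leukocyte genes 16 fell and 1 rose, the actin regulator Coro1a, which went from 115, 137 and 128 to 162, 148 and 163 CPM (0.31 ± 0.06, adjusted p = 0.00108). Border-associated macrophages were represented by 15 listed genes, of which 11 were tested and 7 fell. Among them Mrc1, the mannose receptor, went from 2.76, 5.10 and 2.56 to 0.344, 0.213 and 0.317 CPM (-3.57 ± 0.39), and F13a1, a transglutaminase, changed by -3.79 ± 0.29. Of 16 listed genes of engrafted bone marrow-derived macrophages and monocytes 10 were tested, 4 fell (Ms4a7, Lyz2, Hpgd and Tgfbi) and none rose. Tgfbi lost its call on leaving out NT replicate 2 (adjusted p = 0.122 in edgeR) or PLX3X_CD0 replicate 2 or 3 (0.0579 and 0.0798), and also in the 6-library fit (0.0591). Lyz2, a myeloid lysozyme whose reads can be shared with Lyz1, went from 10.01, 18.1 and 13.95 to 2.43, 3.07 and 2.26 CPM (-2.45 ± 0.37, adjusted p = 0.000641). Csf3r, the granulocyte colony-stimulating factor receptor, changed by -4.66 ± 0.29 and was the 1 of 6 tested genes of the neutrophil list that fell. It averaged 5.43 CPM in NT, where the whole list summed to 7.43 CPM. No other tested gene of that list passed. The 6 tested genes had a median log2 CPM of -1.07, so with few counts the list cannot decide whether neutrophils changed. Which cells gave the Csf3r fall was not tested.

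The level left in PLX3X_CD0 differed widely from gene to gene. Over the 7 myeloid lists (the microglial, receptor, complement, innate sensor, pan-leukocyte, border-associated and engrafted macrophage lists), 113 of 128 genes were tested, and 90 fell and 1 rose. Siglech kept 1.75% of its mean NT level, Csf1r 3.95%, Tmem119 7.60%, Trem2 8.15% and the phosphatase gene Ptpn6 46.3%. Of the 84 genes with at least 2 CPM in NT, 38 kept under 10%, 31 kept 10 to 50% and 15 kept 50% or more. This threshold favours genes that are high in NT, so the split is a description. The median level kept by those 84 genes was 11.5%, 15.96% and 8.75% of NT in PLX3X_CD0 replicates 1, 2 and 3. Replicate 2 was the highest in Csf1r, P2ry12, Tmem119, C1qa, Spi1 and Tyrobp, but the lowest in Mrc1.

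**Figure D2:**
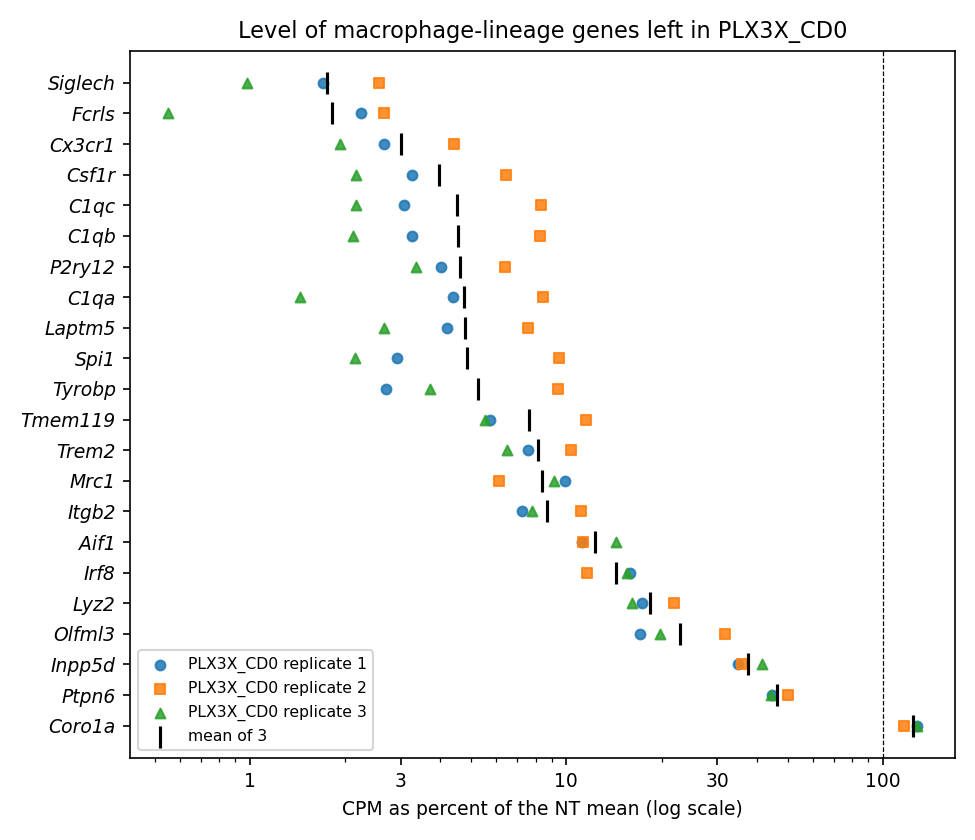
For 22 genes of the myeloid lists, the CPM of each PLX3X_CD0 library is drawn as percent of the mean of 3 NT libraries, on a log axis, with a bar at the mean of 3 and a dashed line at 100%. Siglech lies at the low end with 1.75%, Ptpn6 reaches 46.3%, and Coro1a is the gene above the line.

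Ligands and neighbours of microglia moved in both directions. Il34, the neuronal CSF1R ligand, stood at 43.1, 57.96 and 55.7 CPM in NT and 66.5, 64.99 and 64.9 CPM in PLX3X_CD0, without overlap (0.32 ± 0.08, adjusted p = 0.00769). It did not pass in a fit on the 6 libraries alone (adjusted p = 0.0693). Csf1, the second ligand, was at 23.5, 22.6 and 24.6 against 26.7, 26.6 and 24.5 CPM and did not pass (adjusted p = 0.325). Cd200, a neuronal ligand that restrains myeloid cells, rose by 0.32 ± 0.07. Tgfb1, a cytokine on which microglial identity depends, fell from 4.58, 5.30 and 5.99 to 1.70, 1.01 and 1.19 CPM (-2.03 ± 0.22, adjusted p = 2.63e-06), and its receptor gene Tgfbr1 changed by -1.52 ± 0.10 (adjusted p = 5.85e-09). Of 32 lysosomal genes 14 fell and 6 rose: Ctss, a myeloid cathepsin, changed by -4.40 and Cd68 by -1.57, while Psap, the saposin precursor, rose by 0.24. The rises numbered 3 without PLX3X_CD0 replicate 2. With an offset in the fit that removes each library's trend with transcript length, GC content and abundance, 20 lysosomal genes fell and 1 rose, and the value of Psap was -0.01.

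Antigen presentation and interferon genes showed few calls, where 12.2% of all genes were higher and 9.53% lower, but most members lay below 0. These were 9 of 12 MHC class I, all 7 tested MHC class II and 32 of 38 interferon genes. Their medians were -0.08, -1.10 and -0.36, against -0.03 over all genes. The 8 listed MHC class II genes summed to 27.1, 47.6 and 28.9 CPM in NT, highest in NT replicate 2. In PLX3X_CD0 the sums were 23.8, 24.6 and 23.4 CPM. The interferon genes summed to 248, 426 and 268 CPM in NT and 267, 348 and 248 CPM in PLX3X_CD0, so these sums overlapped. Of 12 MHC class I and peptide loading genes 1 fell (2 without PLX3X_CD0 replicate 2), B2m, the light chain (64.96, 69.9 and 51.1 against 37.3, 37.6 and 34.5 CPM, -0.76 ± 0.10, adjusted p = 2.58e-05). Of 8 listed MHC class II genes 7 were tested and 1 fell (2 without NT replicate 1 or NT replicate 3), H2-DMb1, at -1.16 ± 0.25. Of 38 interferon-stimulated genes 1 rose (Stat2, 0.28 ± 0.09) and 1 fell (Trim30a, -1.27 ± 0.38). The Stat2 call was lost on leaving out NT replicate 1 or 3 or PLX3X_CD0 replicate 2 (0.25, 0.20 and 0.25), and that of Trim30a on leaving out NT replicate 2 or PLX3X_CD0 replicate 1 or 3 (-0.84, -1.203 and -1.26). Leaving out NT replicate 1 or 3 or PLX3X_CD0 replicate 2, the falls numbered 4, 3 and 4.

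Most astrocyte markers fell. Of 33 markers, all tested, 26 fell and none rose, and all 33 had a log2 fold change below 0 (median -0.32). Slc1a2, the main glutamate transporter of astrocytes (ENSMUSG00000005089, chromosome 2, 102658659 to 102790784), was at 544, 642 and 559.9 CPM in NT and 439, 386 and 458 CPM in PLX3X_CD0, without overlap (-0.44 ± 0.07, adjusted p = 0.000137). Kcnj10, the inward rectifier potassium channel of astrocytes and oligodendrocytes (ENSMUSG00000044708, chromosome 1, 172341210 to 172374085), went from 28.7, 20.2 and 24.8 to 11.9, 14.7 and 13.4 CPM, the largest fall in the list (-0.88 ± 0.11, adjusted p = 1.14e-05). Gja1, connexin 43, changed by -0.27 ± 0.05, and Mlc1, a membrane protein of astrocyte endfeet, by -0.36 ± 0.07. The count was 26 with an offset for length and GC, 30 with abundance added, 16 in a fit on the 6 libraries alone and 17 without PLX3X_CD0 replicate 1.

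Reactive astrocyte genes passed at shares near those over all genes (12.2% higher and 9.53% lower). Gfap, the astrocyte intermediate filament, stood at 166, 211 and 284 CPM in NT and 242, 405 and 284 CPM in PLX3X_CD0, overlapping groups, and did not pass (0.49 ± 0.22, adjusted p = 0.146). Of 30 reactive genes 28 were tested, 3 rose and 2 fell. C4b, complement component 4, was at 33.4, 46.9 and 52.7 CPM in NT and 78.96, 124 and 88.8 CPM in PLX3X_CD0, a rise of 1.12 ± 0.23 (adjusted p = 0.00474) where the C1q chains fell. Serpina3n, a protease inhibitor, rose from 9.82, 8.52 and 10.2 to 14.2, 15.04 and 12.7 CPM (0.55 ± 0.10, adjusted p = 0.000328). The groups did not overlap in either gene, and both calls held in every alternative. The other rise, Osmr (0.52 ± 0.18), and the falls of Tm4sf1 (-0.39 ± 0.12) and Hspb1 (-0.49 ± 0.16) lost their calls on leaving out NT replicate 1 or 2 or PLX3X_CD0 replicate 2 or 3, where the adjusted p of Osmr ran from 0.0875 to 0.225, that of Tm4sf1 from 0.0818 to 0.129 and that of Hspb1 from 0.0666 to 0.148.

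**Figure D3:**
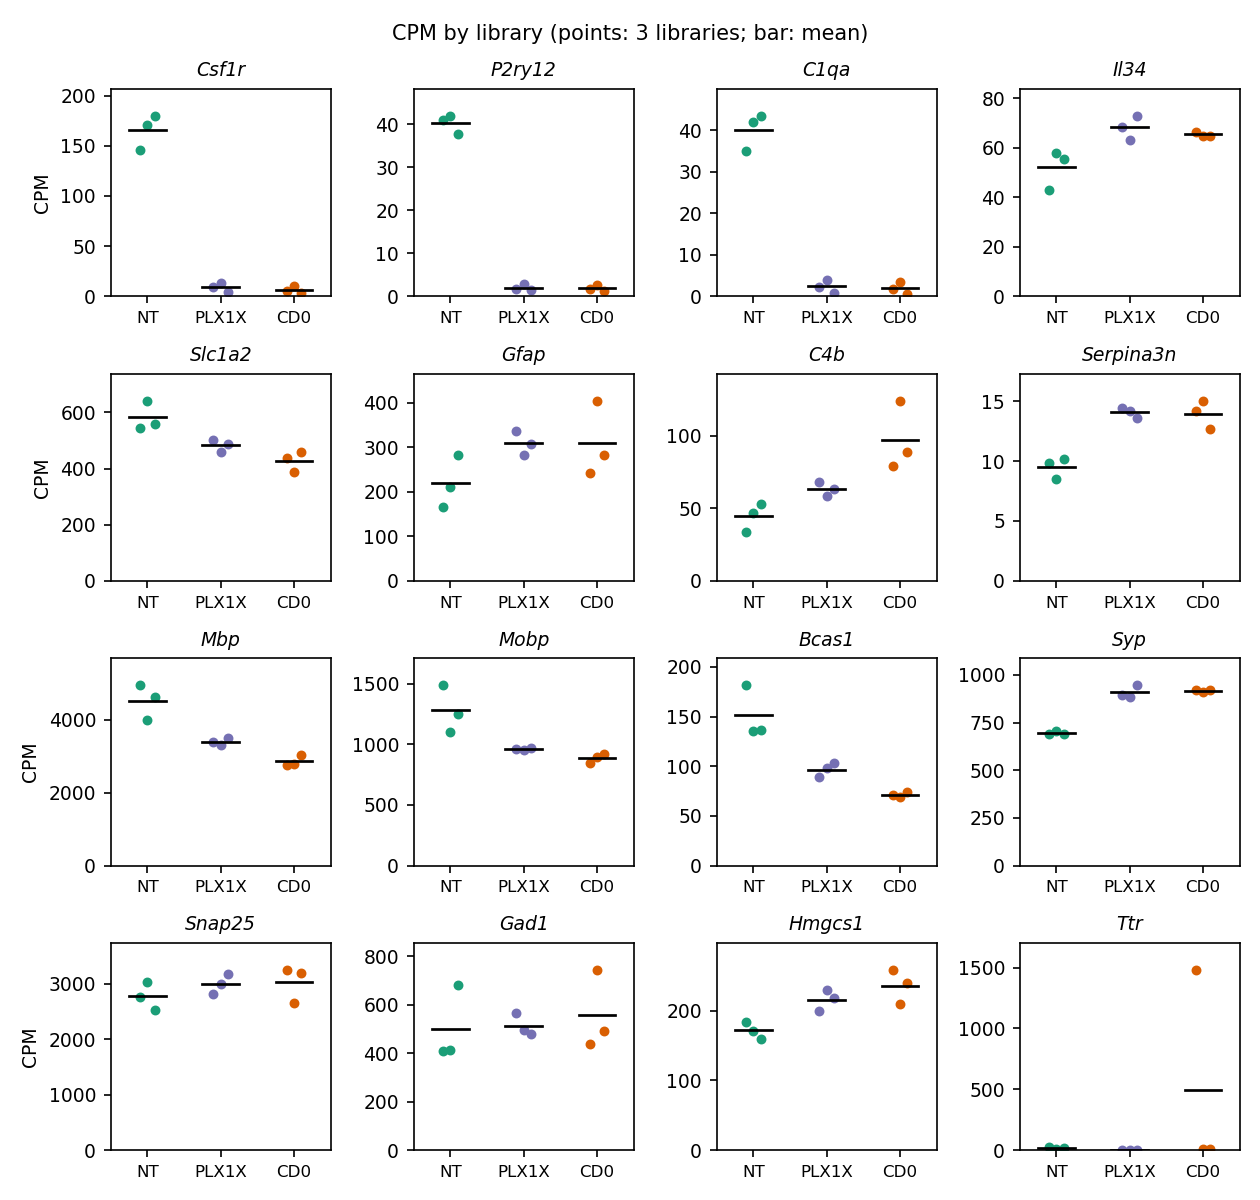
CPM of 16 genes in each of 3 libraries of NT, PLX1X and PLX3X_CD0 (CD0), with a bar at each mean and vertical axes that start at 0. Csf1r, P2ry12 and C1qa are near the axis in both PLX groups, C4b and Syp are higher in all 3 PLX3X_CD0 libraries than in NT, Mbp and Bcas1 are lower, and Ttr is high in PLX3X_CD0 replicate 1 alone.

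Oligodendrocyte genes were lower in part. Of 36 mature oligodendrocyte and myelin genes 17 fell and none rose (median -0.26). The falls were 11 in the 6-library fit, 12 without PLX3X_CD0 replicate 3, 13 with the length and GC offset and 22 with abundance added, and 1 gene rose without NT replicate 3. Mbp, myelin basic protein (ENSMUSG00000041607, chromosome 18, 82475146 to 82585637), was at 4952, 4008 and 4631 CPM in NT and 2759, 2796 and 3047 CPM in PLX3X_CD0, without overlap (-0.66 ± 0.07, adjusted p = 1.45e-06). Mobp, a basic protein of compact myelin, was at 1489, 1106 and 1249.7 CPM in NT and 846, 900.3 and 922 CPM in PLX3X_CD0 (-0.53 ± 0.09, adjusted p = 0.000643). Bcas1, a marker of newly formed oligodendrocytes (ENSMUSG00000013523, chromosome 2, 170346991 to 170427845), went from 181, 135 and 136 to 71.5, 68.6 and 73.5 CPM (-1.08 ± 0.09, adjusted p = 2.52e-07).

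Of 15 newly formed oligodendrocyte genes 6 fell and 1 rose, Nfasc, a protein of the node of Ranvier. Nfasc had a log2 fold change of 0.32, and of 0.09 (adjusted p = 0.157) with the length and GC offset. Without NT replicate 3 the rises numbered 2. The count of falls was 3 without NT replicate 2, 2 without PLX3X_CD0 replicate 1 and 1 without PLX3X_CD0 replicate 3. Of 21 precursor genes 2 rose, the tenascin gene Tnr (0.53 ± 0.08) and the proteoglycan gene Cspg4 (0.40 ± 0.09), and 4 fell, the transcription factors Olig1 (-0.50 ± 0.07), Olig2 (-0.52) and Sox10 (-0.31) and the matrix protein Bcan (-0.24). With the length and GC offset Cspg4 was at 0.23 (adjusted p = 0.0571). The falls were 2 without NT replicate 3 and 2 without PLX3X_CD0 replicate 1. Pdgfra, the growth factor receptor that defines precursors, was at 51.7, 62.96 and 62.3 against 55.98, 67.2 and 58.9 CPM and did not pass (adjusted p = 0.782).

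Presynaptic genes were the neuronal group with the most rises. Of 28 genes of vesicles and release 20 rose and 1 fell (median 0.35). Syp, synaptophysin (ENSMUSG00000031144, chromosome X, 7638471 to 7653256), was at 689, 707 and 688 CPM in NT and 922, 912 and 920.1 CPM in PLX3X_CD0, without overlap (0.40 ± 0.05, adjusted p = 5.06e-06). Sv2b, a vesicle glycoprotein, went from 434, 535 and 408 to 911, 755 and 893 CPM (0.89 ± 0.10, adjusted p = 1.62e-05), and Slc17a7, the vesicular glutamate transporter of cortical neurons, changed by 0.56 ± 0.09. The gene that fell was Pclo, an active zone scaffold (-0.40 ± 0.09). Snap25, a SNARE protein, was at 2766, 3036 and 2518 against 3250.1, 2655 and 3188 CPM and did not pass (adjusted p = 0.3). The count was 19 rises and 1 fall with the length and GC offset, and 12 rises and 6 falls with abundance added. The list had a median log2 CPM of 9.48. In the most abundant of 5 classes of genes 37.4% were higher and 8.47% lower. Whether the presynaptic list differs from other genes as abundant was not tested.

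Postsynaptic genes split. Of 37 glutamate receptor and scaffold genes 13 rose and 7 fell (median 0.04), among them the receptor subunit Grin1 (0.43) upward and the scaffold Dlg4 (-0.43) and the AMPA receptor partner Cacng2 (-0.61) downward. With the length and GC offset 7 rose and 9 fell, and with abundance added 2 rose and 15 fell. Of 16 GABA receptor and gephyrin genes 9 rose and 2 fell, Gabra2 (-0.39) and Gabrg3 (-0.33). The rises numbered 4 without NT replicate 1 and 5 without PLX3X_CD0 replicate 3, the falls 1 on leaving out NT replicate 1 or PLX3X_CD0 replicate 1 or 2, and with length, GC and abundance offset 2 rose and 6 fell. Of 33 voltage-gated channel genes 12 rose and 4 fell, and with the same offset 3 rose and 11 fell. Among the rises was the sodium channel Scn2a (0.59 ± 0.07, adjusted p = 3.68e-06). The glutamate receptor, GABA receptor and channel lists had median transcript lengths of 5568, 4729.5 and 7926 bases. Their median log2 CPM was 7.11, 6.95 and 6.83. In the longest of 5 classes of genes 28.3% were higher and 9.22% lower, and in the most abundant 37.4% and 8.47%. Whether these lists differ from other genes as long or as abundant was not tested.

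Markers of neuron types differed by list, and the shares over all genes were 12.2% higher and 9.53% lower. Of 20 striatal projection neuron genes none passed in the main edgeR fit, where 2 had an unadjusted p under 0.05, or in DESeq2. In edgeR 3 fell without PLX3X_CD0 replicate 3, 3 with the offset for length, GC and abundance, 1 in the 6-library fit, and 8 fell and 1 rose with no filter on low counts. Drd1, the dopamine receptor of direct pathway neurons, was at 135, 149.8 and 146 against 117, 129 and 169 CPM. Gad1, the GABA-synthesizing enzyme, was at 409, 412 and 681 against 437, 745 and 494 CPM and did not pass (adjusted p = 0.703). Of 21 interneuron genes 4 rose: the receptors Kit (0.56 ± 0.06), Cnr1 (0.49 ± 0.09) and Erbb4 (0.24) and the matrix protein Reln (0.66), 2 of them without NT replicate 1. Without NT replicate 3 there were 2 falls. Of 25 cortical excitatory genes 5 rose, among them the exchange factor Rasgrf2 (91.3, 120.4 and 94.1 against 166, 164 and 179 CPM, 0.73 ± 0.09) and the transcription factors Tbr1 (0.48), Mef2c (0.37) and Bcl6 (0.44), and also Ccn2 (0.57), a layer 6b marker. The fall was Cux1 (-0.24), an upper layer factor. Without PLX3X_CD0 replicate 3 the rises were 3, and the falls were 3 without NT replicate 3 and 0 without PLX3X_CD0 replicate 1. Of 28 immediate early genes 2 fell, Jund (-0.34) and Nr4a3 (-0.68), 1 without NT replicate 1 and 5 without NT replicate 2. Without NT replicate 3 there were 3 rises, where the main fit had 0.

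Regional genes depended on single libraries. Of 15 thalamic genes 4 fell: the kinase Prkcd (-2.11) and the transcription factors Gbx2 (-1.996), Rora (-0.44) and Zfhx3 (-1.23). Prkcd was at 86.1, 21.8 and 23.98 CPM in NT and 9.79, 12.1 and 8.01 CPM in PLX3X_CD0, highest in the NT library that stood apart. It did not pass without that library (-1.19, adjusted p = 0.121), nor without any 1 of the PLX3X_CD0 libraries. The list had 2 falls without NT replicate 1, 9 without NT replicate 2 or NT replicate 3, 1 without PLX3X_CD0 replicate 1 or 2, and 2 without PLX3X_CD0 replicate 3.

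**Figure D4:**
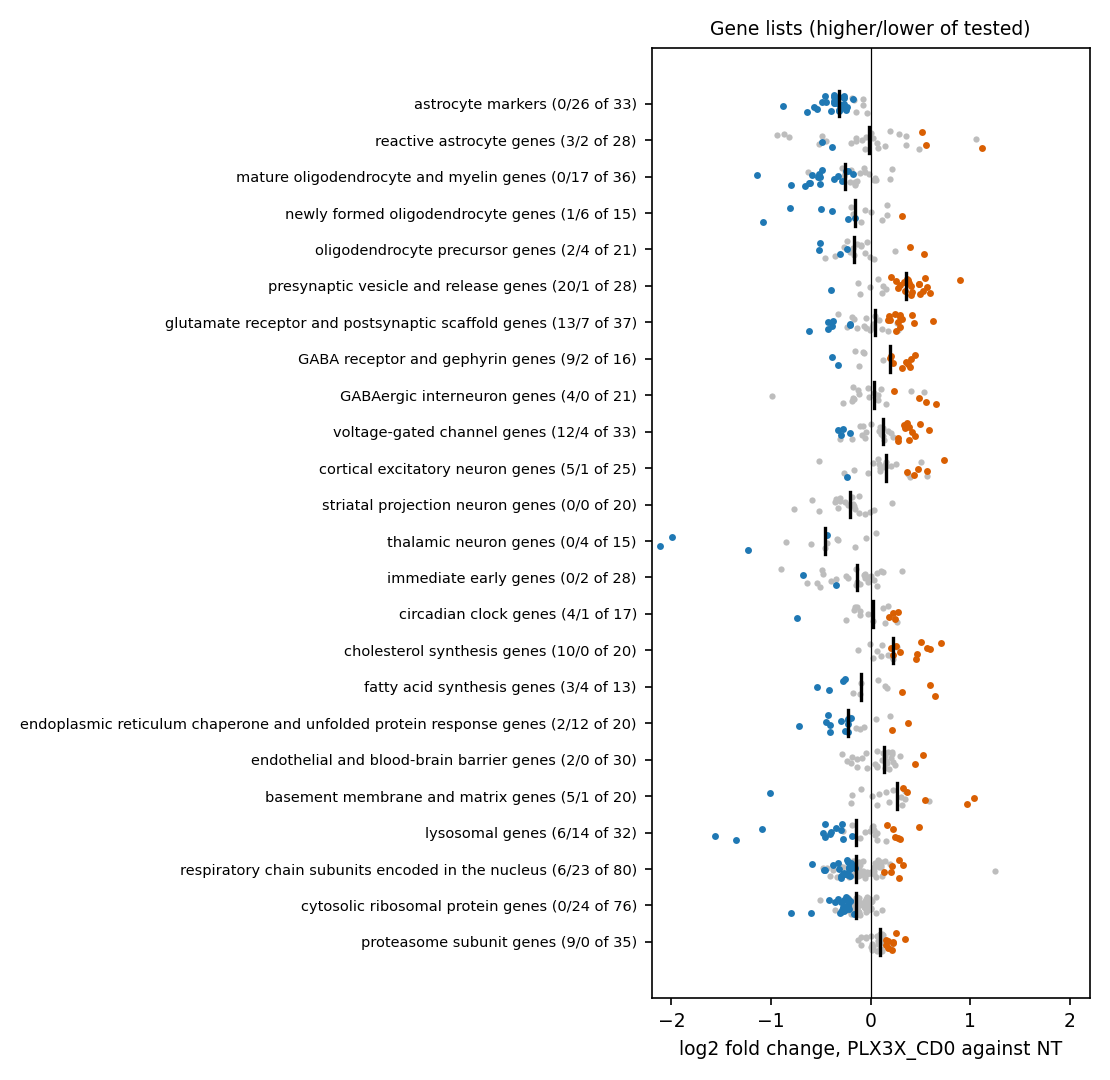
Members of 24 gene lists by log2 fold change, PLX3X_CD0 against NT, with orange for members that rose, blue for members that fell, grey for the others and a bar at the median over members tested. The labels give rises, falls and genes tested, and the axis is limited to 2.2 in each direction, so members beyond it are not drawn. Astrocyte markers lie left of 0 (26 of 33 fell) and presynaptic genes mostly right of it (20 of 28 rose).

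Part of the cholesterol synthesis pathway rose. Of 20 synthesis genes 10 rose and none fell (median 0.23). Hmgcs1, which makes HMG-CoA (ENSMUSG00000093930, chromosome 13, 119690379 to 119708260), was at 184, 172 and 159.8 CPM in NT and 259, 209 and 240.1 CPM in PLX3X_CD0, without overlap (0.46 ± 0.08, adjusted p = 0.000425). Fdft1, squalene synthase, went from 95.03, 99.1 and 99.5 to 139, 127 and 138 CPM (0.46 ± 0.06, adjusted p = 8.17e-06), and Lss, lanosterol synthase, changed by 0.60 ± 0.06. Among 20 genes of uptake, sensing and efflux 6 rose and none fell, with 1 fall without NT replicate 1 or PLX3X_CD0 replicate 2. The synthesis count was 10 with the length and GC offset and 7 with abundance added, while uptake genes then gave 1 rise and 7 falls. In fatty acid synthesis 3 of 13 genes rose, the early enzymes Fasn (0.65 ± 0.07), Acaca (0.59 ± 0.08) and Acly (0.31 ± 0.06), and 4 fell, the desaturases and elongases Scd1 (-0.54 ± 0.07), Elovl5 (-0.42 ± 0.06), Fads2 (-0.27) and Elovl6 (-0.26). Without PLX3X_CD0 replicate 3 the falls were 2.

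The promoter of Hmgcs1 (chr13:119690101-119690400, plus strand) is shown as the 1 promoter among the cholesterol genes that held the sterol regulatory element TCACCCCAC, a site of the SREBP factors, in capitals.
Hmgcs1 promoter: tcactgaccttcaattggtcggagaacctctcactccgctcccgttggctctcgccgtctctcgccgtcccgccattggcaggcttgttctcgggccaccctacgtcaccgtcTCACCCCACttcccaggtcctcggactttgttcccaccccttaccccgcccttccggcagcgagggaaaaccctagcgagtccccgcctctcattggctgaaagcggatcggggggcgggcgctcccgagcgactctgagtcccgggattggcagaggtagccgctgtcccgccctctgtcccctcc
Of 40 cholesterol genes 29 had a promoter entry and 1 of these (3.45%) held the element, against 141 of 27025 promoters (0.52%).

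Endoplasmic reticulum chaperones fell, while counts for respiratory and ribosomal genes moved with the length offset. Of 20 endoplasmic reticulum chaperone and unfolded protein response genes 12 fell and 2 rose, the asparagine synthetase gene Asns (0.38) and the chaperone gene Hyou1 (0.21), 1 of them without NT replicate 2 or PLX3X_CD0 replicate 1. Hspa5, the chaperone BiP, went from 433, 377 and 387 to 321, 282 and 301 CPM (-0.41 ± 0.08, adjusted p = 0.000877). The falls numbered 7 without NT replicate 1, 6 without PLX3X_CD0 replicate 2, 7 without PLX3X_CD0 replicate 3 and 5 in the 6-library fit. Of 13 mitochondrially encoded transcripts 10 fell (median -0.50), and 2 with the length and GC offset. Their share of counts was 0.656 to 0.817% in NT and 0.412 to 0.476% in PLX3X_CD0. Of 80 tested nuclear subunits of the respiratory chain 23 fell and 6 rose, and with that offset 7 fell and 10 rose. The falls were 37 without NT replicate 3, 14 without PLX3X_CD0 replicate 1 and 11 without PLX3X_CD0 replicate 3. The rises were 3 without PLX3X_CD0 replicate 2, and the 6-library fit gave 10 falls and 3 rises. Of 76 tested ribosomal protein genes 24 fell, 10 with the offset and 9 in the 6-library fit. Their falls were 13 without NT replicate 2, 9 without PLX3X_CD0 replicate 1 and 13 without PLX3X_CD0 replicate 3. Of 35 tested proteasome subunits 9 rose and none fell. With the length and GC offset 18 rose and none fell, with abundance added 2 rose and 2 fell, and in the 6-library fit 3 rose.

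Few vascular genes passed, and some matrix genes rose, where 12.2% of all genes were higher and 9.53% lower. The basement membrane list had a median transcript length of 6860.5 bases, and in the longest of 5 classes of genes 28.3% were higher. Whether the list differs from other genes as long was not tested. Of 30 endothelial and blood-brain barrier genes 2 rose, the amino acid transporter Slc7a5 (0.44 ± 0.07, adjusted p = 7.14e-05) and Vwf (0.53 ± 0.15). Vwf lost its call on leaving out NT replicate 1 or 3 or PLX3X_CD0 replicate 2 (0.39, 0.44 and 0.43). Without NT replicate 2, the library high in meningeal genes, the endothelial list had 8 rises, and it had 1 fall on leaving out NT replicate 1 or 3 or PLX3X_CD0 replicate 1 or 2. Cldn5, the tight junction claudin, was at 28.9, 31.7 and 32.7 against 36.4, 36.5 and 33.6 CPM (adjusted p = 0.0583). In the basement membrane list 5 of 20 rose, the laminin chains Lamb1 (0.36) and Lamc1 (0.32), the proteoglycan Agrn, and Fbn1, fibrillin 1 (4.19, 5.23 and 3.28 against 9.69, 7.78 and 8.51 CPM, 1.04 ± 0.20), along with the laminin chain Lama5 (3.86, 3.67 and 5.03 against 8.83, 9.04 and 6.96 CPM, 0.97 ± 0.14). The list had 9 rises without NT replicate 2, 8 with no filter on low counts, and 3 with the length and GC offset, with abundance added or in the 6-library fit. Lamc1 did not pass with either offset (0.12 in both, adjusted p = 0.301 and 0.288). The 1 fall was Sparc, a matrix glycoprotein that microglia and astrocytes also make, from 328, 221 and 276 to 121, 166 and 124 CPM (-1.01 ± 0.23).

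Outside the lists, Pappa2, a protease of insulin-like growth factor binding proteins, had the largest rise by the same criteria as Siglech had the largest fall (1.05, 2.23 and 1.64 against 4.32, 3.07 and 5.23 CPM, 1.32 ± 0.26, adjusted p = 0.00105). Itga4, an integrin of leukocytes and neural cells, rose from 2.43, 3.44 and 2.97 to 6.87, 7.34 and 6.33 CPM (1.20 ± 0.15, adjusted p = 1.39e-05). The 2 groups did not overlap in either gene. Among the most abundant genes, the glycolytic enzyme Aldoa rose by 0.33. Counts assigned to Lars2, the gene of a mitochondrial leucyl-tRNA synthetase, went from 4867, 5308 and 6152 to 3762, 3720 and 3904 CPM (-0.52). Which RNA gave these reads was not tested. The ferritin chain Fth1 changed by -0.25 and the motor Kif5a by -0.23. Kif5a did not pass without PLX3X_CD0 replicate 2 (-0.15).

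Calls also followed transcript length, abundance and gene class. Genes were split into 5 classes of near equal size by length, and likewise by abundance. In the shortest class 0.620% were higher and 10.2% lower, and in the longest 28.3% were higher and 9.22% lower. In the most abundant class 37.4% were higher, in the least abundant 0.275%. The median log2 level of the shortest class, relative to the NT mean, was 0.19, -0.04 and -0.13 in the NT libraries and -0.18, -0.22 and -0.22 in PLX3X_CD0. With an offset for length and GC content 2303 genes were higher and 2094 lower, and with abundance added 1081 were higher and 2930 lower, where the main fit gave 56.1% of calls higher. Of 1058 unspliced gene models that the annotation files as TEC 281 (26.6%) were lower and 5 higher, and they made up 224 of the 699 falls of at least 2-fold. The median of these models was -0.65, -0.68 and -0.68 in the PLX3X_CD0 libraries, and 182 fell with the length and GC offset, 186 without PLX3X_CD0 replicate 2 and 181 without PLX3X_CD0 replicate 3. The part of these properties in any list above was not tested.

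**Figure D5:**
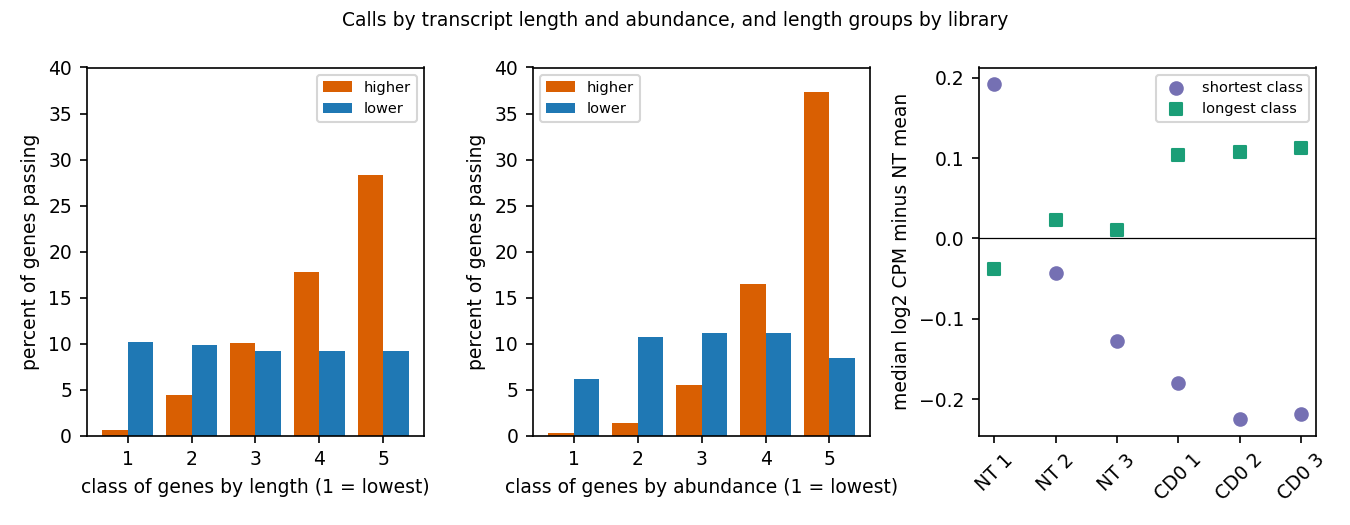
Left and middle, percent of genes higher (orange) and lower (blue) in PLX3X_CD0 against NT in each of 5 classes by transcript length and by abundance. Right, median log2 CPM minus the NT mean in 6 libraries for the shortest and the longest class: the shortest class lies between -0.22 and -0.18 in PLX3X_CD0 (CD0) and at 0.19 in NT replicate 1.

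Set against PLX1X, PLX3X_CD0 differed in fewer genes: 390 were higher (1.79%) and 146 lower (0.67%), 2.46% of those tested. Leaving out any 1 of the 6 libraries left 106 to 227 higher and 44 to 66 lower genes. Many single calls rest on few libraries there. Siglech was at 1.06, 1.46 and 0.542 CPM in PLX1X and lower in PLX3X_CD0 by a log2 fold change of -1.63 ± 0.33 (adjusted p = 0.0151), the 1 microglia-restricted gene of 15 past the threshold. Its adjusted p was 0.0601 to 0.0766 without PLX1X replicate 1, PLX1X replicate 2, PLX3X_CD0 replicate 1 or PLX3X_CD0 replicate 3. Cd53 was likewise lower (-1.75 ± 0.38, adjusted p = 0.0202) but did not pass without any library of the 6 other than PLX1X replicate 3 (0.0539 to 0.119). Csf1r, at 8.91, 13.6 and 4.53 CPM in PLX1X, did not pass (-0.47 ± 0.40). Of 36 myelin genes 5 were lower (among them Car2, Plekhb1, Cryab and Ndrg1) and 1 higher (Mcam), and 2 lower and 0 higher without any 1 of the 6 libraries. Bcas1 was at 88.7, 97.8 and 103 CPM in PLX1X and lower in PLX3X_CD0 (-0.44 ± 0.09, adjusted p = 0.0138). It did not pass without PLX1X replicate 2, PLX1X replicate 3 or PLX3X_CD0 replicate 2 (0.0642, 0.0655 and 0.0592). Nor did Bcas1 pass with the length and GC offset or with abundance added (adjusted p = 0.0554 and 0.101 in edgeR).

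Among all lists, circadian clock genes had the largest share of members past the threshold in that comparison. Of 17 genes 3 were higher than in PLX1X (Clock, Npas2 and Arntl) and 8 lower. The higher genes numbered 1 without PLX1X replicate 2, and the lower ones 4 without PLX1X replicate 2 or PLX3X_CD0 replicate 1 and 5 without PLX1X replicate 3. Ciart, a repressor within the clock, was at 34.8, 43.9 and 40.1 CPM in PLX1X, 14.00, 14.01 and 14.98 CPM in PLX3X_CD0 and 12.6, 12.4 and 11.02 CPM in NT. It was lower than in PLX1X (-1.47 ± 0.14, adjusted p = 6.67e-05). The test against NT was not passed (adjusted p = 0.228). Per2, a core repressor of the clock, had a log2 fold change of -0.94 ± 0.13 against PLX1X (adjusted p = 0.00202). Against NT 4 clock genes rose (Clock, Nr1d2, Npas2 and Cry2), 1 of them without NT replicate 1 or PLX3X_CD0 replicate 3. None rose in the 6-library fit, and with the offset for length, GC and abundance none rose and 3 fell. The gene that fell in the main fit was Bhlhe41, a repressor (27.6, 23.9 and 22.7 against 13.9, 15.4 and 15.1 CPM, -0.74 ± 0.11, adjusted p = 8.7e-05). Its promoter (chr6:145865371-145865670, minus strand) is shown as the called clock gene that held the E-box CACGTG, the site of CLOCK dimers, in capitals.
Bhlhe41 promoter: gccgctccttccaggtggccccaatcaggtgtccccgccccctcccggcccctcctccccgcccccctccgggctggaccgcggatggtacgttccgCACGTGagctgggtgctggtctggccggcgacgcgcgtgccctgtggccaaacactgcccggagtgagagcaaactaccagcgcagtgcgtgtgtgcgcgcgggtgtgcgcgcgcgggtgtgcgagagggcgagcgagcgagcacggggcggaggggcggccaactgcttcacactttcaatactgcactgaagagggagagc
Of 17 clock genes 15 had a promoter entry, and 5 of these (33.3%) held the E-box, against 1957 of 27025 (7.24%). The labels give no time of day for any library.

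Basement membrane genes differed from PLX1X too, with 5 of 20 higher (Col4a1, Col4a2, Lama5, Fbn1 and Agrn) and none lower, also without any 1 of the 6 libraries. With the length and GC offset, or with abundance added, 4 were higher, and Lama5 lost its call in both. Agrn, the heparan sulphate proteoglycan agrin, was at 99.00, 99.00 and 99.3 CPM in PLX1X, 92.8, 109 and 109 CPM in NT and 153, 151 and 150.1 CPM in PLX3X_CD0, above both references (0.61 ± 0.06 against PLX1X, adjusted p = 3.69e-05, and 0.54 ± 0.06 against NT, adjusted p = 2.61e-06). Fbn1, at 4.69, 4.50 and 3.30 CPM in PLX1X, was also above both (1.05 ± 0.19 against PLX1X, adjusted p = 0.00629). Hspa5, the chaperone that was lower than in NT, was lower than in PLX1X as well (410.3, 376 and 465 CPM there, -0.47 ± 0.08, adjusted p = 0.00316), 1 of 4 lower chaperone genes of 20 (with Creld2, Xbp1 and Atf4). These were 1 or 2 without any 1 library. Fasn was higher than in PLX1X, at 359.7, 348 and 367 CPM there (0.40 ± 0.07, adjusted p = 0.00584), but the offset for length and GC lowered the value to 0.19 and ended the call (adjusted p = 0.0669). With abundance added the value was 0.23 and passed (adjusted p = 0.032 in edgeR).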

How the data were processed

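RNA of 15 forebrain samples was sequenced as paired reads from SMARTer cDNA, which marks no strand, per the labels' protocols. The authors deposited gene counts and CPM per library; DRAGEN, DESeq2 and mm10 are in the submitters' processing notes, without versions or roles. Reads of antisense or overlapping genes therefore cannot be told apart. Repeated rows (287, identical) were removed. The test on counts was edgeR's (version 4.0.16, R 4.3.3), with TMM scaling, filterByExpr by group, a robust quasi-likelihood fit on all 15 libraries, and Benjamini-Hochberg adjustment over 21780 genes with a threshold of 0.05. CPM values printed were computed from the counts after TMM scaling. DESeq2 1.42.0, other scalings and filters, offsets, a replicate block and leaving out each library were alternatives; the abundance offset was chosen after seeing the data. Named genes were the 15 largest rises and falls without overlap, up to 4 members of each list by adjusted p, fixed markers, the 5 largest differences from PLX1X each way, and the 5 most abundant called genes each way; others were named because a list count was small or after their values were seen. Members and lists were chosen with earlier results of these data known. The test was tried on simulated counts. Counting error at these depths, if each count is 1 independent fragment, is small for genes above a few CPM and large below 1 CPM. Of the genes with counts of 1 to 4, 70.6 to 74.7% had an even count in each of the 6 libraries compared. Whether both reads of a pair were counted was not tested. Some genes the rule named are not reported here.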

Additional observations from a re-analysis of the deposited data

How the results depend on the processing

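Against NT, 1465 genes rose and 1136 fell when 6 libraries were fitted by themselves, and 1081 rose with the offset for length, GC and abundance. Leaving out 1 library gave 2092 to 2820 higher and 1407 to 2294 lower genes. Against PLX1X, no filter on low counts gave 843 higher and 343 lower, DESeq2 639 and 407, the offset for length and GC 165 higher, that with abundance 221 higher, and the 6 libraries alone 245 lower. Leaving out 1 library there gave 106 to 227 higher and 44 to 66 lower. With the length, GC and abundance offset the log2 fold change against NT turned to -0.0274 for Ncdn, -0.00857 for Psap, -0.18 for Snap25 and -0.0482 for Timp2, and with the length and GC offset to 0.0178 for mt-Nd5. The cause was not tested. Of 226 named-gene values 149 kept direction and side of the threshold in every alternative. A replicate block gave 2584 higher and 1991 lower against NT, and 339 and 115 against PLX1X. Same-numbered libraries of NT and PLX3X_CD0 had correlations of 0.14, -0.08 and -0.09, and differently numbered ones ran from -0.19 to 0.27. So few libraries cannot decide whether the numbers pair them. Genes below about 1 CPM have few counts in the shallowest library.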

Other observations

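Single growth factor and neuropeptide genes passed in both directions in PLX3X_CD0 against NT. Of 19 tested, 2 rose and 4 fell, where 12.2% of all genes were higher and 9.53% lower. Adcyap1, the neuropeptide PACAP, was at 12.2, 12.9 and 14.4 CPM in NT and 25.7, 22.7 and 19.9 CPM in PLX3X_CD0 (0.78 ± 0.11, adjusted p = 4.72e-05 in edgeR), and Pcsk2, a prohormone convertase, rose by 0.34. Vegfa, the vascular growth factor, fell from 67.8, 68.7 and 75.4 to 54.8, 50.7 and 51.4 CPM (-0.44 ± 0.08, adjusted p = 0.000528 in edgeR). Pcsk1n, an inhibitor of prohormone convertases, Fgf1 and Vegfb had log2 fold changes of -0.54, -0.32 and -0.18. The groups did not overlap in Adcyap1 or Vegfa.

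The same shares over all genes, 12.2% higher and 9.53% lower, stand beside the small lists that follow. Of 16 neurogenesis genes 3 fell. Sox2, a factor of neural stem cells and astrocytes, went from 55.00, 36.2 and 44.99 to 30.3, 28.6 and 29.99 CPM (-0.61 ± 0.10), Sox11, a factor of immature neurons, from 16.1, 14.1 and 19.98 to 9.81, 12.7 and 11.7 CPM (-0.56 ± 0.13), and Hes5, a Notch target, changed by -0.55 ± 0.15. The Hes5 call was lost on leaving out NT replicate 1 or 3 or PLX3X_CD0 replicate 1. Of 12 tested pericyte and smooth muscle genes 1 rose, the smooth muscle myosin Myh11, from 2.76, 5.94 and 3.78 to 6.99, 8.11 and 8.32 CPM (0.88 ± 0.19), and 3 rose without NT replicate 2. Of 10 tested lymphocyte genes 3 fell, Cd79b, Ighm and Ltb. Ltb lost its call on leaving out NT replicate 1 (-0.90, adjusted p = 0.204 in edgeR) or any 1 of the PLX3X_CD0 libraries, with either offset or in the 6-library fit. Cd79b, a B cell receptor chain, was at 0.334, 0.495 and 0.369 CPM in NT and 0.0608, 0 and 0 CPM in PLX3X_CD0. Oxt, the hypothalamic peptide oxytocin, was at 13.6, 0.446 and 0.479 CPM in NT and 0.0810, 0.0388 and 0.0373 CPM in PLX3X_CD0, and did not pass without any 1 of the PLX3X_CD0 libraries.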
